A study of Mus musculus with 4 samples.

Results

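The mitochondrial ribosomal proteins build the ribosome that works inside mitochondria, and their genes were followed here in rib chondrocytes of mice with a cartilage-directed knockout of the histone demethylases Kdm6a and Kdm6b. They were chosen by symbol: every gene whose symbol starts with Mrpl (large subunit) or Mrps (small subunit) followed by a number. This gave 78 of the 17575 genes listed in the deposited data, 49 of the large and 29 of the small subunit, and all 78 were listed in each of the 4 libraries. RNA was sequenced from 2 libraries labelled knockout, from mice with the transgene Col2Cre(Tg) and the alleles Kdm6a(fl/fl) and Kdm6b(fl/fl), and 2 labelled wild type. All came from C57/Bl6 mice 10 days old, whose rib cartilage was digested with collagenase and whose cells were plated before RNA was extracted. Cre, the recombinase that removes the flanked parts of both genes, is driven by the promoter of the type II collagen gene, which is active in cartilage cells, so cells of other types in the plate need not be recombined. The labels do not say whether the wild type mice carried Cre or flanked alleles, nor whether each library came from its own animals. The p-values therefore speak only of the spread among these 4 samples, and that spread may be technical. The series describes triplicates, and 2 libraries of each group are analysed here.

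The mitochondrial ribosome translates only the few messages of mitochondrial DNA, all of them for subunits of the respiratory chain and the ATP synthase. Its RNAs come from mitochondrial DNA, but its proteins are encoded in the nucleus, made in the cytosol and imported. The small subunit binds and decodes the messenger RNA, and the large subunit joins the amino acids. Some of the proteins descend from those of the bacterial ribosome and others were added later in evolution. Chondrocytes live in cartilage without vessels and are known for meeting much of their energy need by glycolysis. Mitochondrial rRNAs and messages are not analysed here.

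The libraries held 32332044 and 32230980 expected counts in knockout and 31616619 and 31178248 in wild type. Both targeted genes fell in knockout, as counted over whole transcripts, remaining exons included. Kdm6b had 7.76 and 6.96 FPKM (fragments per kilobase of transcript scaled to the depth of the library, a level per length) in knockout against 19.6 and 17.2 in wild type, and its log2 fold change was -1.35 ± 0.09 (SE) with an edgeR adjusted p of 0.00174. Kdm6a had 5.41 and 5.94 FPKM in knockout against 9.83 and 10.4 in wild type, and its log2 fold change was -0.87 ± 0.09 (SE) with an edgeR adjusted p of 0.00489. Cartilage collagen and matrix genes were abundant in every library, with Col2a1, which encodes type II collagen, at 7547 and 7426 FPKM in knockout and 5220 and 4767 FPKM in wild type.

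As a family, the genes stood somewhat higher in knockout chondrocytes, in the large and in the small subunit. Their FPKM values summed to 2363 and 2241 in knockout against 2026 and 1842 in wild type, a ratio of group means of 1.19. Over all genes the sums were 413600 and 410900 in knockout against 406500 and 395600 in wild type, a ratio of 1.03. Large subunit genes summed to 1518 and 1437 FPKM in knockout against 1284 and 1169 FPKM in wild type (1478 ± 57 against 1226 ± 81, SD, n = 2 each). Small subunit genes summed to 844.7 and 804.2 FPKM in knockout against 742.0 and 672.7 FPKM in wild type (824.5 ± 29 against 707.3 ± 49, SD, n = 2 each). For either subunit both knockout libraries lay above both wild type libraries, and wild type replicate 2 was the lowest, as in the sums over all genes. With 2 libraries against 2, a 2-sided exact permutation test cannot give a p below 0.333, so these sums carry no test. In bulk RNA, fewer cells of a type and less RNA per cell cannot be told apart.

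**Figure D1:**
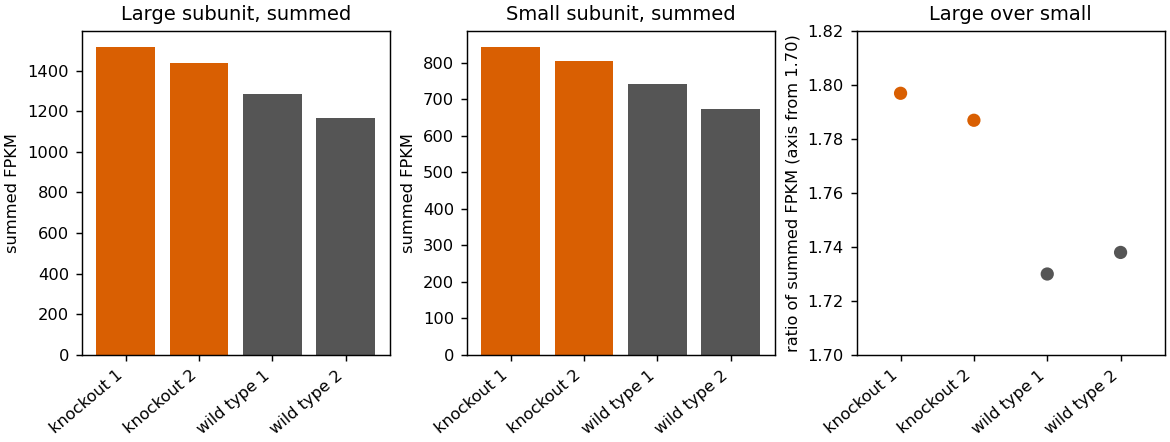
Summed FPKM of the 49 large subunit genes (left, bars from 0) and the 29 small subunit genes (middle, bars from 0), and the ratio of these sums (right, points, axis not from 0), in each of the 2 knockout and 2 wild type libraries. Both sums are highest in knockout replicate 1 and lowest in wild type replicate 2, and the ratio is 1.80 and 1.79 in knockout against 1.73 and 1.74 in wild type.

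Gene by gene, the shift was broad and small. In edgeR's quasi-likelihood test of knockout against wild type, 76 of the 78 genes had a log2 fold change above 0, and the median was 0.19. Over all 13773 genes tested 50.6% were above 0 and the median was 0.00. All 78 passed the filter on low counts. At an adjusted p under 0.05 (Benjamini-Hochberg over all tested genes) 4 of the 78 rose, where 3.62% of all tested genes did, and 0 fell, where 5.63% did. At an unadjusted edgeR p under 0.05, 26 of the 78 were higher and 0 lower. Of the 13773 tested genes 1902 (13.8%) were higher and 2114 lower at that p. In 55 of the 78, both knockout libraries lay above both wild type libraries in CPM (counts scaled to the size of the library), which held for 30.9% of all tested genes, and the other 23 overlapped between groups. The share of genes called was thus close to the background. The shares above 0 and with both knockout libraries above both wild type libraries were higher than it. Over all tested genes a further 4232 of 13773 had both knockout libraries below both wild type libraries, where 0 of the 78 did. In the shortest quartile of transcript length, where most of the family lies, 45.6% of genes had both knockout libraries above.

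**Figure D2:**
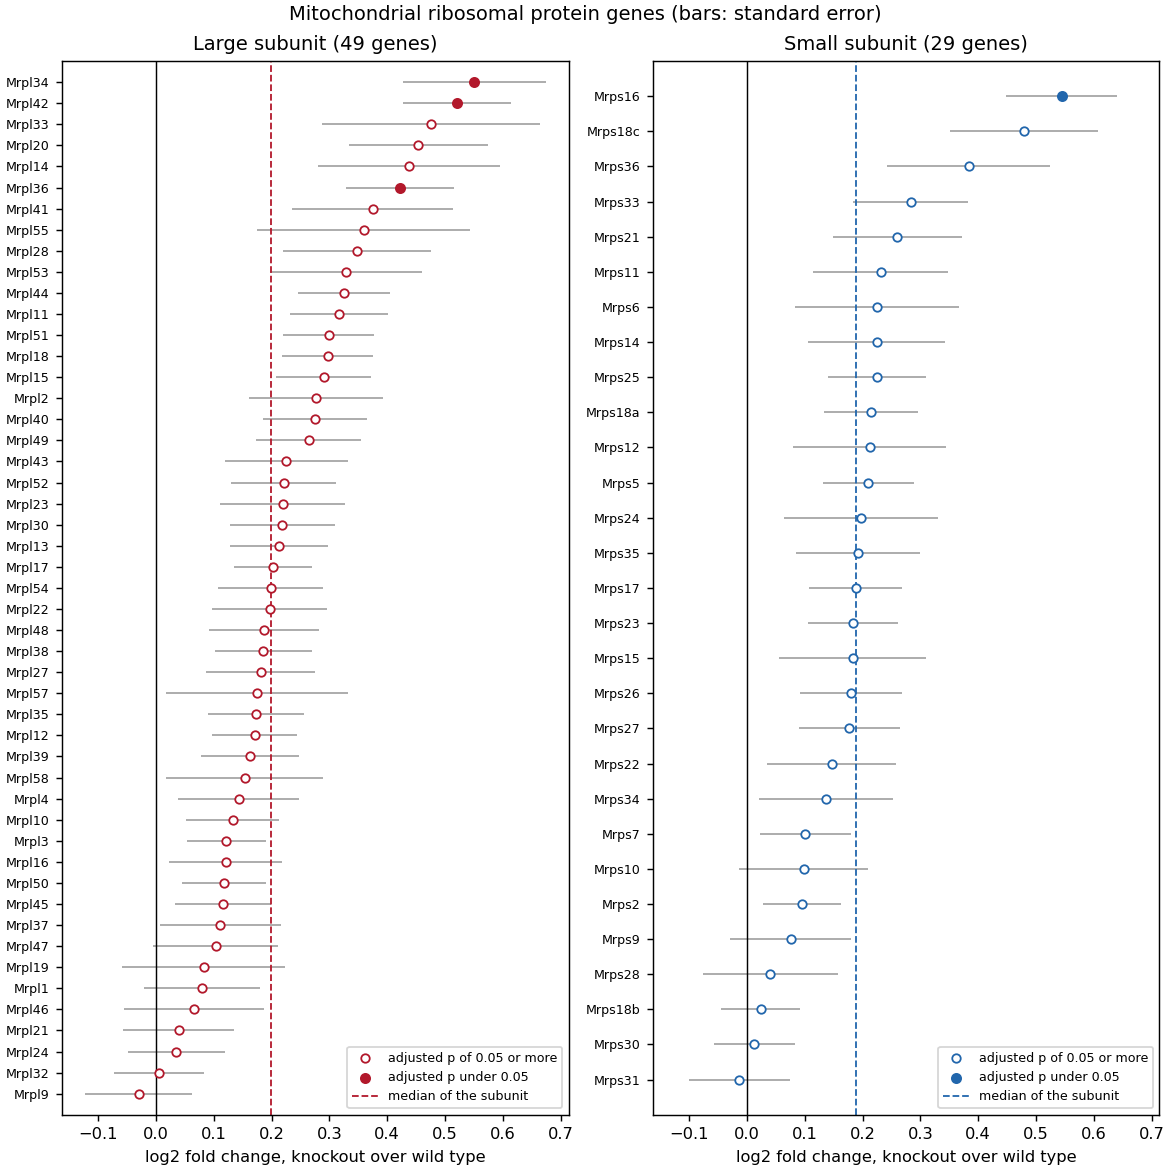
Log2 fold change of knockout over wild type for each of the 49 large subunit genes (left) and 29 small subunit genes (right), with bars of 1 standard error from edgeR, filled points at an adjusted p under 0.05 and a dashed line at the subunit's median. All but Mrpl9 and Mrps31 lie right of 0, and the medians are 0.20 for the large and 0.19 for the small subunit.

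The 4 genes that rose were Mrpl34, Mrpl36 and Mrpl42 of the large subunit and Mrps16 of the small subunit. Mrps16 (NCBI gene 66242) encodes a protein of the small subunit with a bacterial counterpart. It had 45.2 and 45.8 FPKM in knockout against 32.01 and 28.83 FPKM in wild type. The groups did not overlap, and the knockout libraries lay closer together than the wild type libraries. The mean was 24.1 ± 0.27 CPM in knockout and 16.6 ± 0.92 CPM in wild type (SD, n = 2 each), with a log2 fold change of 0.54 ± 0.10 (SE) and an edgeR adjusted p of 0.0227. Mrpl42 (NCBI gene 67270) has no bacterial counterpart. The structures of the mammalian mitochondrial ribosome place its protein in the large subunit, although its deposited annotation also carries a small subunit term. It had 54.6 and 49.2 FPKM in knockout against 36.9 and 33.7 FPKM in wild type, again without overlap. The means were 32.8 ± 2.4 CPM in knockout and 22.8 ± 1.0 CPM in wild type (SD, n = 2 each), with a log2 fold change of 0.52 ± 0.09 (SE) and an edgeR adjusted p of 0.0236.

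Mrpl36 (NCBI gene 94066) and Mrpl34 (NCBI gene 94065) encode small proteins of the large subunit, both with a bacterial counterpart. Mrpl36 had 37.7 and 36.4 FPKM in knockout against 29.02 and 25.02 FPKM in wild type. Its means were 32.8 ± 0.76 CPM in knockout and 24.4 ± 2.1 CPM in wild type (SD, n = 2 each), with a log2 fold change of 0.42 ± 0.09 (SE) and an edgeR adjusted p of 0.0422. Both knockout libraries lay above both wild type libraries. Mrpl34 had 35.9 and 37.2 FPKM in knockout against 27.1 and 21.6 FPKM in wild type. Its means were 23.0 ± 0.61 CPM in knockout and 15.7 ± 2.2 CPM in wild type (SD, n = 2 each), with the highest log2 fold change of the 78, 0.55 ± 0.12 (SE), and an edgeR adjusted p of 0.0426. The wild type libraries were further apart than the knockout libraries, and the groups did not overlap. None of the 4 calls held when either wild type library was left out, where edgeR called 0 of all genes. Without wild type replicate 1 the median log2 fold change was 0.25 for the large and 0.24 for the small subunit. Without wild type replicate 2 it was 0.19 and 0.14. Without knockout replicate 1, Mrpl36 and Mrpl42 no longer passed (edgeR adjusted p 0.107 and 0.0656) and Mrpl34 and Mrps16 did. Without knockout replicate 2, Mrpl36 and Mrpl34 no longer passed (edgeR adjusted p 0.0638 and 0.0681), while Mrpl42, Mrps16, Mrpl20 and Mrpl41 did. Genes of this family have processed copies elsewhere in the genome that can share reads, which makes single values uncertain to that extent. The sources used here do not say if strand entered the counting.

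The promoters of the 4 genes each show either the core bound by ETS factors such as GABPA (CCGGAAG) or the core bound by YY1 (AAGATGGC). Both motifs are known for nuclear genes of mitochondria, and both were searched on both strands. The stretches are printed to show where these letters lie, from the RefSeq annotation of the mouse build GRCm38.p6, 5′ to 3′ on the gene's strand, with the core in capitals. The 150 bases before the start of Mrpl36, chr13:73330859-73331008 on the plus strand, hold the YY1 core on the opposite strand at position -30 from the start. The 150 bases before the start of Mrpl34, chr8:71464776-71464925 on the plus strand, hold the ETS core at -37. The stretch of 30 bases from Mrps16, chr14:20393546-20393575 on the minus strand, holds the ETS core on the opposite strand at -74. That of Mrpl42, chr10:95501904-95501933 on the minus strand, holds the YY1 core at 28 bases, counting the start as 1. None of these matches overlapped another motif searched. Mrps16 also has an ETS core on the opposite strand at 25, not printed, which overlaps a GC box (GGGCGG) at 30. Around its other annotated start neither core was found.
Mrpl36: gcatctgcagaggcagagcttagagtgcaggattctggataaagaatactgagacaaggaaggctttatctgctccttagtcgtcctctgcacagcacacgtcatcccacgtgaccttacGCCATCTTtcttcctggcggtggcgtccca
Mrpl34: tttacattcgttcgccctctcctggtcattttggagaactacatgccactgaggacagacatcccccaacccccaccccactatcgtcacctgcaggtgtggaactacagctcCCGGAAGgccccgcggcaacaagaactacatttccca
Mrps16: ttgggggcgctCTTCCGGgcttcaggctct
Mrpl42: cagattgaagcAAGATGGCgagcgcgcggt

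Over the family, 75 windows of 300 bases (250 before and 50 after a start) were found for 69 of the 78 genes. The ETS core was in 34.7% of them, against 15.9% of the windows of all tested genes and 8.86% of all 32851 windows of the table. It was in 31.2% of large and 40.7% of small subunit windows. The YY1 core was in 16.0% of the family's windows, 12.5% for large and 22.2% for small subunit genes, against 4.06% for tested genes and 2.75% for all windows. The core of NRF1 (GCATGCGC) was in 10.7%, 14.6% for large and 3.70% for small subunit genes, against 4.84% for tested genes and 2.71% for all windows. The more general motifs were nearer to the tested genes: the GC box (GGGCGG) was in 52.0% against 60.6%, CCAAT in 30 of the 75 windows against 37.4% and TATAAA in 6.67% against 7.54%. A match describes the letters of the window and is not a site shown to be bound.

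The 49 large subunit genes had a median log2 fold change of 0.20 (quartiles 0.12 and 0.30) and the 29 small subunit genes one of 0.19 (quartiles 0.10 and 0.22), a difference of 0.01. That difference has no value per library. Between replicates, the gap between the subunits' median log2 CPM, another quantity, had a standard deviation of 0.06. Of the large subunit 3 rose and 48 were above 0, and of the small subunit 1 rose and 28 were above 0. Both knockout libraries lay above both wild type libraries in 37 large and 18 small subunit genes, and the others overlapped. Of all tested genes 3.62% rose, 50.6% were above 0 and 30.9% had both knockout libraries above both wild type libraries. Another 4232 of the 13773 tested genes had both knockout libraries below, so non-overlap in either direction was more common than 30.9%. In the shortest quartile of transcript length, where most of the family lies, 5.23% of genes rose and 45.6% had both knockout libraries above. Leaving out knockout replicate 1 turned the difference of the median log2 fold changes to -0.02, and without knockout replicate 2 it was 0.05. No test was made between the subunits, since their genes are not replicates of a condition. The ratio of the large to the small subunit's summed FPKM was 1.80 and 1.79 in knockout against 1.73 and 1.74 in wild type (1.792 ± 0.0072 against 1.734 ± 0.0052, SD, n = 2 each), with no overlap. The ratio of the subunits' median FPKM was 1.043 and 1.0 in knockout against 1.029 and 1.008 in wild type, with overlap. The gap in the ratio of sums was thus not seen in median FPKM, while the gap in median log2 CPM did not overlap between groups.

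Symbols do not fully match the place of the protein. Mrps18a and Mrps30, named for the small subunit, sit in the large subunit, and Mrps36 is now counted as a part of the 2-oxoglutarate dehydrogenase complex and not of the ribosome. Counted by structure, the large subunit had 51 genes with a median log2 fold change of 0.20 and the small subunit 26 with 0.19, with 3 and 1 called as before. The ratio of the sums was then 2.10 and 2.10 in knockout against 2.03 and 2.05 in wild type. Mrps18a had 34.7 and 35.4 FPKM in knockout against 30.2 and 28.8 in wild type (log2 fold change 0.21 ± 0.08, SE; edgeR adjusted p 0.143). Mrps30 had 32.53 and 31.99 FPKM in knockout against 31.3 and 31.1 in wild type (log2 fold change 0.01 ± 0.07, SE; edgeR adjusted p 0.921). Neither passed, and Mrps30 was among the genes closest to no difference. Mrps36 had 22.03 and 20.49 FPKM in knockout against 17.8 and 14.0 in wild type (log2 fold change 0.38 ± 0.14, SE; edgeR adjusted p 0.134).

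The subunits were also split by the number in the symbol, as a stand-in for a bacterial counterpart. Genes numbered up to Mrpl36 and Mrps21, other than Mrps18a and Mrps18b, were counted as having one. The number alone set the class, so single genes may be misplaced. The 28 large subunit genes counted with a counterpart had a median log2 fold change of 0.20, with 2 called up. The 20 counted without had one of 0.19, with 1 called up. Among small subunit genes the 14 counted with a counterpart had a median of 0.21, with 1 called up, and the 15 counted without had 0.18, with 0 called up. Such calls made up 3.62% of all tested genes and 5.23% of those in the shortest quartile of transcript length. Mrpl55 was put in neither class. The genes lie on 17 chromosomes, and Mrpl46 and Mrps11 on chromosome 7 are the only pair next to each other in the annotation used.

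Levels within each subunit spread far more than the groups differed. Averaged over the 4 libraries, large subunit genes ran from 5.09 to 95.2 FPKM (median 25.4) and small subunit genes from 6.25 to 63.2 FPKM (median 24.3). The highest of the large subunit on average was Mrpl52, a protein without a bacterial counterpart, with 107.9 and 99.3 FPKM in knockout against 92.4 and 81.1 FPKM in wild type (log2 fold change 0.22 ± 0.09, SE; edgeR adjusted p 0.167). Next came Mrpl20, whose bacterial counterpart takes part in building the large subunit, with 108.1 and 85.2 FPKM in knockout against 67.72 and 69.96 FPKM in wild type (log2 fold change 0.45 ± 0.12, SE; edgeR adjusted p 0.0655). Its knockout libraries lay far apart, with knockout replicate 1 well above the rest, and the groups did not overlap. Its log2 fold change was 0.27 (edgeR adjusted p 0.199) without knockout replicate 1 and 0.62 (edgeR adjusted p 0.00672) without knockout replicate 2, and DESeq2 called it with all libraries (adjusted p 0.0215). The stalk, the part of the large subunit that brings in the translation factors, is made of Mrpl10 and Mrpl12, and Mrpl12 is also known to bind the mitochondrial RNA polymerase. Mrpl12 was the third highest, with 71.5 and 72.4 FPKM in knockout against 65.4 and 59.4 FPKM in wild type (log2 fold change 0.17 ± 0.07, SE; edgeR adjusted p 0.180). Mrpl10 had 25 and 26.3 FPKM in knockout against 24.0 and 21.8 FPKM in wild type (log2 fold change 0.13 ± 0.08, SE; edgeR adjusted p 0.316). In both stalk genes the groups did not overlap, and neither passed the test.

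**Figure D3:**
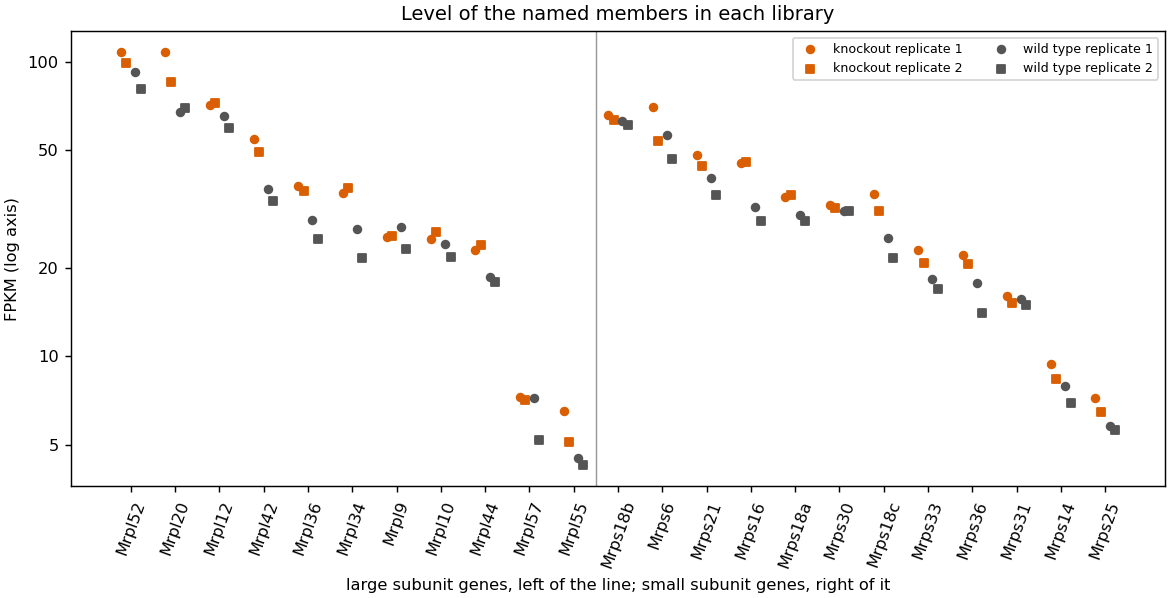
FPKM on a log axis of the named genes of the large subunit (left of the line) and the small subunit (right of it), ordered by mean level, with 1 point for each of the 2 knockout and 2 wild type libraries. The order of levels within a subunit spans from 95.2 to 5.09 and from 63.2 to 6.25 FPKM on average, and both knockout points lie above both wild type points in most genes but not in Mrpl9, Mrpl57, Mrps6 and Mrps31.

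Mrpl44, which has a domain related to ribonuclease III, came closest to the threshold, with 23.0 and 23.8 FPKM in knockout against 18.6 and 17.8 FPKM in wild type (log2 fold change 0.33 ± 0.08, SE; edgeR adjusted p 0.0550). At the low end, Mrpl57 had 7.25 and 7.08 FPKM in knockout against 7.22 and 5.19 in wild type, and Mrpl55 had 6.49 and 5.11 in knockout against 4.50 and 4.25 in wild type. Mrpl57 overlapped through a single close value, while Mrpl55 did not overlap. Neither passed, with edgeR adjusted p-values of 0.495 and 0.246. Mrpl9 was the only large subunit gene below 0, with 25.3 and 25.5 FPKM in knockout against 27.5 and 23.2 FPKM in wild type. Its knockout libraries lay between the wild type libraries, and its log2 fold change was -0.03 ± 0.09 (SE; edgeR adjusted p 0.859), a value above 0 under some other scalings.

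In the small subunit, the 3 proteins named Mrps18 are related, and only Mrps18c stands for the bacterial protein in its usual place. Mrps18c had 35.5 and 31.2 FPKM in knockout against 25.2 and 21.5 FPKM in wild type (log2 fold change 0.48 ± 0.13, SE; edgeR adjusted p 0.0676). Mrps18b, the most abundant of the small subunit, had 65.9 and 63.2 FPKM in knockout against 62.9 and 61.0 FPKM in wild type (log2 fold change 0.02 ± 0.07, SE; edgeR adjusted p 0.847). So the relatives ran from almost no difference to the second highest log2 fold change of the small subunit, and none passed. Mrps6 and Mrps21, both with bacterial counterparts, were next in level. Mrps6 had 69.99 and 53.67 FPKM in knockout against 56.4 and 46.9 in wild type (edgeR adjusted p 0.334), and Mrps21 had 48.1 and 44.4 FPKM in knockout against 40.2 and 35.2 in wild type (edgeR adjusted p 0.183). Mrps6 overlapped between groups and Mrps21 did not. Mrps33, a protein without a bacterial counterpart, had 22.9 and 20.7 FPKM in knockout against 18.3 and 16.9 in wild type (log2 fold change 0.28 ± 0.10, SE; edgeR adjusted p 0.126). The lowest were Mrps14, with 9.41 and 8.36 FPKM in knockout against 7.93 and 6.92 in wild type, and Mrps25, with 7.18 and 6.44 in knockout against 5.77 and 5.60 in wild type (log2 fold change 0.22 for each). In both the groups were close but did not overlap. Mrps31, the only small subunit gene below 0, had 16.0 and 15.1 FPKM in knockout against 15.67 and 14.95 in wild type, and its log2 fold change was -0.01 ± 0.09 (SE) with an edgeR adjusted p of 0.935, a value above 0 under some other scalings.

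Over all tested genes, the log2 fold change moved with transcript length. The family's transcripts are short, with a median length of 1056 bases in the deposited files against 2882 over all tested genes, and 65 of the 78 lie in the shortest quartile of tested genes (up to 1852 bases). Over all tested genes the median log2 fold change was 0.13 in that quartile, then 0.02, -0.03 and -0.10 in the longest. In the shortest quartile 5.23% of genes were called up and 45.6% had knockout libraries above wild type libraries without overlap. The 65 genes of the family there had a median of 0.20, the 8 in the second quartile 0.15, the 2 in the third 0.23 and the 3 in the longest 0.20. Libraries of the same group showed a trend in the same direction: wild type replicate 1 over replicate 2 had medians of 0.07 in the shortest and -0.05 in the longest quartile, and knockout replicate 1 over replicate 2 had 0.02 and -0.01. Wild type replicate 1 lay above replicate 2 in 60 of the 78 genes (76.9%), where 50.7% of all tested genes did. Knockout replicate 1 lay above replicate 2 in 52 of the 78 (66.7%), where 49.7% of all tested genes did. The family's own medians did not fall with length, on few genes outside the shortest quartile, and the part of the trend in its shift was not tested.

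**Figure D4:**
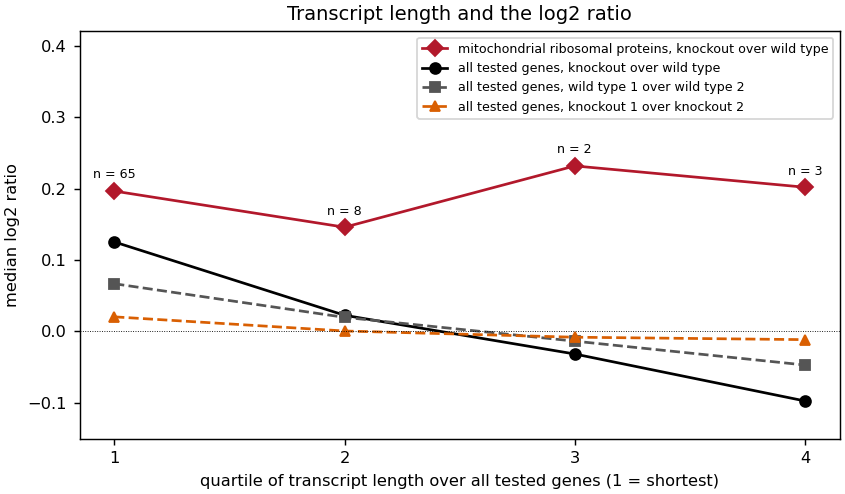
Median log2 ratio by quartile of transcript length (1 is shortest) for the mitochondrial ribosomal protein genes (diamonds, knockout over wild type, with the number of genes) and for all tested genes as knockout over wild type (circles), wild type replicate 1 over 2 (squares) and knockout replicate 1 over 2 (triangles). Medians of all tested genes run from 0.13 to -0.10 between knockout and wild type, while those of the family stay between 0.15 and 0.23 on 65, 8, 2 and 3 genes.

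A fit with a smooth trend on length taken out of each library, an alternative chosen after seeing the data, removes every difference that goes with length, whatever its source. There the family's median log2 fold change was 0.05, with 56 of 78 genes above 0. The large subunit then had a median of 0.09 (35 of 49 above 0) and the small subunit one of 0.03 (21 of 29 above 0), against -0.01 over all tested genes. None of the 4 genes called before passed there: the log2 fold change was 0.34 for Mrpl34, 0.32 for Mrps16, 0.31 for Mrpl42 and 0.25 for Mrpl36, with adjusted p-values of 0.105, 0.0847, 0.0725 and 0.111. The single call among the 78, where 3.21% of all tested genes were called up, was Mrpl17, a large subunit protein with a bacterial counterpart, named here after its value was seen. Its transcript is the longest of the family at 6712 bases. Mrpl17 had 13.0 and 12.8 FPKM in knockout against 10.93 and 10.95 FPKM in wild type, with close replicates and no overlap. Its log2 fold change was 0.31 ± 0.07 (SE; edgeR adjusted p 0.0383) without the trend and 0.20 ± 0.07 (SE; edgeR adjusted p 0.112) with it.

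The number of calls also depended on the test. DESeq2 called 5 of the 78 up, where 5.05% of its genes were called up. Limma on log2(FPKM + 1) and on log2(FPKM + 0.1) called 7 each, where 5.19% and 5.03% of genes were called up. EdgeR called 2 without a filter on low counts (1.51% of genes called up), 3 with library totals alone as scaling (3.51%) and 9 with the replicate number as a block (6.89%). In each of these fits 0 of the 78 were called down. In the authors' deposited table, 5 of the 78 had an adjusted p under 0.05, all with a log2 fold change above 0: Mrpl42, Mrps16, Mrpl34, Mrpl20 and Mrpl36. Such a p with a log2 fold change above 0 was listed for 3.33% of all genes in the authors' deposited table. The authors' deposited table marked 0 of the 78 as up or down, where it marked 1.58% of all genes, and had 76 of the 78 above 0.

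Other ribosomal and respiratory genes were set beside the family. Complex I, the first enzyme of the respiratory chain, contains several subunits made by the mitochondrial ribosome. Its nuclear genes were chosen by symbol alone (Nduf followed by a, b, c, s or v and a number), which may misplace single genes. These 36 genes had a median log2 fold change of 0.28, with 35 above 0, 7 called up and 0 down. Of all tested genes 3.62% were called up, and 5.23% of those in the shortest quartile of transcript length. Examples are Ndufb4, with 85.9 and 78.2 FPKM in knockout against 59.5 and 50.4 in wild type (log2 fold change 0.54 ± 0.10, SE; edgeR adjusted p 0.0275), and Ndufa3, with 55.4 and 56.4 in knockout against 38.9 and 32.1 in wild type (log2 fold change 0.62 ± 0.12, SE; edgeR adjusted p 0.0313). Ndufa13 and Ndufb2 also rose, with log2 fold changes of 0.44 and 0.60. The 77 proteins of the cytosolic ribosome had a median of 0.10, with 67 above 0, 1 called up (Rpl39, log2 fold change 0.33 ± 0.07, SE; edgeR adjusted p 0.0333) and 0 down. Both families are short as well, with median lengths of 654 and 703 bases. With the length trend taken out, complex I genes had a median of 0.12 with 28 above 0 and 0 called, and cytosolic ribosomal protein genes one of -0.10 with 10 above 0, a turn of direction.

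**Figure D5:**
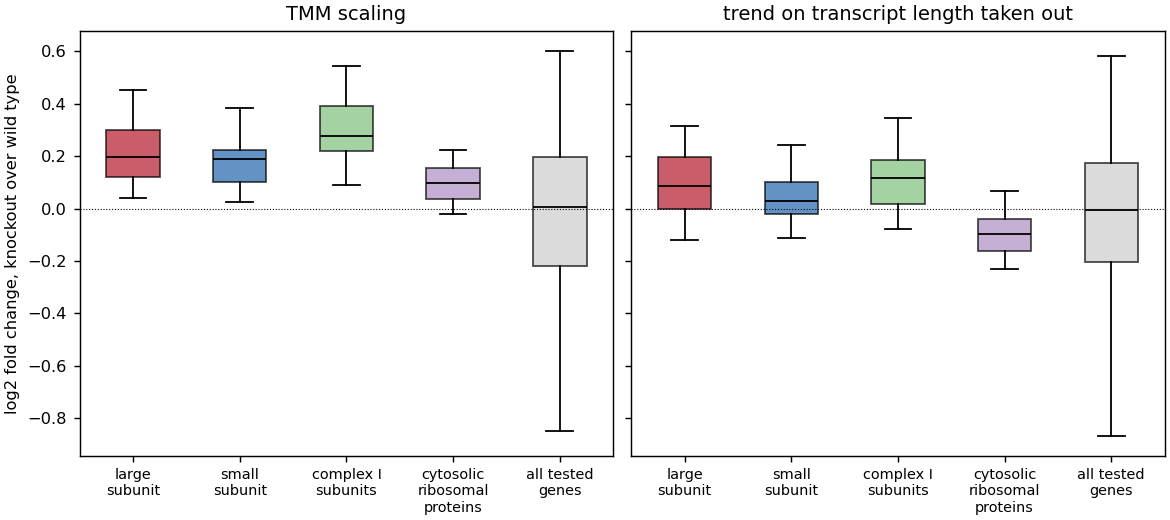
Box plots of the log2 fold change of knockout over wild type for large and small subunit genes, complex I subunits, cytosolic ribosomal proteins and all tested genes, with TMM scaling (left) and with the trend on transcript length taken out (right); boxes span the quartiles with a line at the median, and whiskers reach the percentiles 5 and 95. Medians left are 0.20, 0.19, 0.28, 0.10 and 0.00, and right they are 0.09, 0.03, 0.12, -0.10 and -0.01.

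Genes that work with the mitochondrial ribosome gave no call in either direction. All 5 mitochondrial ribosomal proteins under other symbols were above 0 (median log2 fold change 0.20), led by Chchd1 of the small subunit, with 40.2 and 38.3 FPKM in knockout against 30.1 and 28.1 in wild type (log2 fold change 0.40 ± 0.09, SE; edgeR adjusted p 0.0503). Dap3, a GTP-binding protein of the small subunit, had 10.2 and 10.6 FPKM in knockout against 8.43 and 7.95 in wild type (log2 fold change 0.31 ± 0.07, SE; edgeR adjusted p 0.0517). Of 25 genes for assembly of the ribosome and modification of its RNA 20 were above 0 (median 0.13). The smallest p among them belonged to Rbfa, a factor that matures the small subunit (log2 fold change 0.38 ± 0.10, SE; edgeR adjusted p 0.0615), and the next to Mettl17, a methyltransferase-like protein of that subunit's assembly (0.38 ± 0.12, SE; edgeR adjusted p 0.103). Of 13 translation factors 11 were above 0 (median 0.20), among them Tufm, the elongation factor that brings in tRNAs (log2 fold change 0.25 ± 0.08, SE; edgeR adjusted p 0.106), and Pdf, which removes the formyl group of new proteins (0.23 ± 0.07, SE; edgeR adjusted p 0.0993). Of 14 genes for the upkeep and transcription of mitochondrial DNA and the stability of its RNAs 9 were above 0 (median 0.11), led by Slirp, which binds mitochondrial messages (0.43 ± 0.11, SE; edgeR adjusted p 0.0632), and Tefm, the elongation factor of mitochondrial transcription (0.43 ± 0.13, SE; edgeR adjusted p 0.0956).

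Of 9 nuclear regulators of mitochondrial genes 1 was above 0 and 0 were called, with a median log2 fold change of -0.12 and a median transcript length of 3349 bases. Gabpa, the ETS factor of the motif above, had 19.7 and 18.9 FPKM in knockout against 20 and 21.9 in wild type (edgeR adjusted p 0.259), and Yy1 had 38.6 and 36.2 in knockout against 40.1 and 39.3 in wild type (edgeR adjusted p 0.291). Both were lower in each knockout library than in either wild type library, and neither passed. Myc, which drives growth and ribosome genes in many cells, had 121.0 and 125.6 FPKM in knockout against 139.8 and 137.5 in wild type (log2 fold change -0.21 ± 0.07, SE; edgeR adjusted p 0.116). Esrra, a nuclear receptor of mitochondrial genes and the one above 0, had 7.41 and 6.76 FPKM in knockout against 6.07 and 4.58 in wild type (log2 fold change 0.38 ± 0.15, SE; edgeR adjusted p 0.157).

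Markers of the cells in the plate moved between the groups as well, and their part in the family's shift was not tested. Of 7 chondrocyte markers 4 rose (Matn3, Col11a1, Col2a1 and Col9a1) and 0 fell, summing to 10750 and 10360 FPKM in knockout against 7501 and 7052 in wild type, while Sox9 did not pass (log2 fold change -0.19). Of 6 tested macrophage markers 0 rose and 1 fell (Lyz2), and the list summed to 23.8 and 23.1 FPKM in knockout against 36.1 and 32.1 in wild type. Of 6 endothelial markers 3 fell (Cdh5, Tek and Pecam1) and 0 rose, with sums of 23.4 and 19.3 FPKM in knockout against 31.2 and 27.9 in wild type. Erythroid markers, with 3 of 5 tested fallen, all globin genes, summed to 18.3 and 21.4 FPKM in knockout against 39.4 and 46.9 in wild type. Osteoblast markers, with 1 of 5 fallen (Bglap), summed to 1.55 and 2.26 FPKM in knockout against 4.50 and 5.04 in wild type. Of 4 tested muscle markers Tnnt3 rose, and the list summed to 3.72 and 12.6 FPKM in knockout against 4.63 and 4.36 in wild type, with knockout replicate 2 above the rest.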

How the data were processed

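Bowtie2 2.2.5 and the mouse build mm9 are named, per the submitters' processing notes. The counting tool, the annotation and the strand setting were not given in the sources used here. Per the file headers, each deposited library file holds an expected count, an FPKM value and a transcript length per gene. A deposited table of the authors compares knockout with control and holds, per the file headers, group mean signal in normalized counts, log2 fold changes, and raw and adjusted p-values.

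The deposited expected counts were fitted, after rounding to whole numbers, with edgeR 4.0.16 in R 4.3.3 (TMM scaling, filterByExpr, quasi-likelihood F test) over all 4 libraries, and p-values were adjusted by Benjamini-Hochberg over 13773 genes and called at 0.05. The biological coefficient of variation was 10.3%. Log2 fold changes are of knockout over wild type. The standard error is the size of the log2 fold change divided by the root of the F statistic. In simulated data the fit recovered 8.96% of true 1.25-fold changes, 71.6% of 1.5-fold and 90.9% of 2-fold changes. It called 17 of 13414 unchanged genes there. The family's median fold was 1.14, so most changes of that size would not be called. Alternatives were upper-quartile scaling, library totals alone, DESeq2 1.42.0, no filter, limma 3.58.1 on log2 FPKM with pseudocounts of 1 and 0.1 (genes averaging at least 1 FPKM, or no filter), a replicate block, leaving out each library, summed transcript entries, subunits by structure, and a length trend (lowess, span 0.3) taken out as an offset. Levels between genes are compared in FPKM, apart from the median log2 CPM of the subunits, which is not scaled to length.

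Named were all called genes, and in each subunit the 4 with the smallest p, the largest positive and negative log2 fold change, the 3 highest and 2 lowest FPKM, 7 genes with known places, and up to 4 called or otherwise 2 genes of a list. Mrpl17, Gabpa and Yy1 were added after their values were seen. The genes and lists were chosen with earlier results of these data known. All 78 genes matched RefSeq's table by gene number. Its build, GRCm38.p6, differs from mm9, so coordinates belong to printed RefSeq windows alone, and 9 genes had none.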

Additional observations from a re-analysis of the deposited data

How the results depend on the processing

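No gene of the family was called down in any fit. With 4 of the 78 called in edgeR, counts stayed within 1.5 times under upper-quartile scaling, library totals, DESeq2 and summed transcript entries. The count was 7 with limma at either pseudocount, 0 with limma and no filter (0 of all genes called, with 37 of the family at an unadjusted p under 0.05), 2 in edgeR with no filter on low counts, and 1 with the length trend taken out. Leaving out 1 library gave 0 to 4 calls, 0 without either wild type library, 2 without knockout replicate 1 and 4 without knockout replicate 2 (2 of them Mrpl20 and Mrpl41, not called with all libraries), and assumes that the lone library of a group varies like the other group. The median log2 fold change was 0.17 to 0.25 for the large and 0.14 to 0.24 for the small subunit over these fits, and 0.0864 and 0.0304 with the length trend taken out. All genes called numbered 1274 in edgeR, 2316 with the replicate block, 720 with no filter, and 0 without either wild type library.

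With the replicate block 9 of the 78 were called, among them Mrpl20 (adjusted p 0.0197). The numbers are not known to pair the samples: the correlation of deviations of same-numbered libraries was 0.11 over genes and -0.23 over the family, on 2 pairs.

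Over all alternatives Mrpl34 ranged from 0.34 to 0.71 (adjusted p 0.0124 to 0.219), Mrpl36 from 0.25 to 0.51 (0.0145 to 0.224), Mrpl42 from 0.31 to 0.60 (0.0034 to 0.220) and Mrps16 from 0.32 to 0.60 (0.0039 to 0.198). Some uncalled genes changed sign. With the length trend taken out the log2 fold changes were -0.001 for Mrpl12, -0.0409 for Mrpl52, -0.1346 for Mrps18b and -0.0815 for Mrps30. That of Mrpl9 was 0.0051 with library totals, 0.0099 with limma and a pseudocount of 0.1, 0.0094 with limma and 1, filtered or not. That of Mrps31 was 0.0228, 0.0217 and 0.0205 in the same fits.
Leaving out 1 library moved the log2 fold change of Mrpl9 between -0.1267 and 0.0818, Mrps31 between -0.0496 and 0.0336, Mrpl57 between -0.022 and 0.4125, Mrps18b between -0.0028 and 0.0617 and Mrps30 between -0.0007 and 0.0338.
The ratio of summed levels, 1.797 and 1.787 in knockout against 1.730 and 1.738 in wild type, was 2.099 and 2.101 in knockout against 2.029 and 2.052 in wild type by structure, and 1.043 and 1.0 in knockout against 1.029 and 1.008 in wild type with medians. The cause of these changes was not tested.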
